A study of Mus musculus with 14 samples.

Results

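The expression of 10 genes of TGF-β and BMP signaling was followed in RPE cells of mice that lack Clic4 in the RPE. The 10 genes were chosen by name, as ligands (Tgfb1, Tgfb2, Tgfb3, Bmp4 and Bmp7), receptors (Tgfbr1, Tgfbr2 and Tgfbr3) and SMADs (Smad3 and Smad7), out of 42687 genes counted. CLIC4, an intracellular chloride channel family protein, is known as a modulator of TGF-β signaling, which is why these genes were examined. They were chosen with earlier results of these data known. All 10 passed the filter on low counts in every comparison, with 47 or more reads in every library.

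RPE cells of 14 mice, 3 months of age, were sequenced as stranded poly(A) RNA libraries, with the cells of both eyes of 1 mouse pooled in each library, so p-values measure the spread between mice. The RPE was shaken off the eyecup after hyaluronidase and trypsin, and no sorting step is described. KO mice (Best1-Cre+/-; Clic4f/f) carry Cre under the RPE promoter of Best1 and floxed Clic4 alleles, so cells other than RPE keep Clic4. The WT set holds 3 KO and 3 WT mice (C57BL6/J, neither Cre nor floxed allele), the Ctrl set 2 KO and 2 Ctrl mice (Clic4f/f, no Cre), and the CreCtrl set 2 KO and 2 CreCtrl mice (Best1-Cre+/-, no floxed allele). The sets share no library, and control genotype and set cannot be told apart.

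TGF-β ligands are secreted in a latent form and, once released, bind TGFBR2, which recruits and activates TGFBR1. The active complex phosphorylates SMAD2 and SMAD3, which enter the nucleus with SMAD4. BMPs use related receptors to phosphorylate SMAD1, SMAD5 and SMAD9, and SMAD7 is an inhibitor that damps TGF-β signaling. In the eye TGF-β is known for its part in epithelial to mesenchymal transition of the RPE and in fibrosis, and BMPs for patterning the eye and specifying the RPE.

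The libraries held 9828293 to 32384166 counted reads, fewer in the WT libraries (9828293 to 12363580) than in the KO libraries of their set (16040454 to 16370963). Levels are given as CPM (read counts scaled to a common library total), scaled by TMM over all 14 libraries. Within each set, KO and control were compared with the quasi-likelihood test of edgeR, adjusted over all genes tested after Benjamini and Hochberg, and a gene was called at an adjusted p under 0.05 and a fold change above 1.5. Clic4 itself fell from 225 ± 5.88 CPM in WT (SD, n = 3) to 24.8 ± 7.72 CPM in KO (SD, n = 3). It had 66.7 ± 6.61 CPM in Ctrl and 97.1 ± 14.9 CPM in CreCtrl (SD, n = 2 each), against 21.8 ± 17.0 and 22.1 ± 11.9 CPM in the KO groups of these sets (SD, n = 2 each). Every KO library was below every control library, and the difference was called against WT and CreCtrl but not against Ctrl (log2 fold change -1.61, edgeR adjusted p = 0.333). Leaving out KO replicate 1 gave -0.98 against Ctrl and leaving out KO replicate 2 gave -2.77, and it was called when all genes of at least 1 count were kept (edgeR adjusted p = 2.62e-05). Against CreCtrl it was -2.16, and -2.88 without KO replicate 2.

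The libraries differed in their cell type markers. RPE markers (10 genes, among them Rpe65 and Rlbp1, all detected in every library) summed to 15055 to 22305 CPM in WT and to 45473 to 56280 CPM in Ctrl and CreCtrl, and to 69757 to 79982 CPM in the 7 KO libraries. Ttr and Rgr were the most abundant of them, with means of 26141 and 13027.5 CPM over the 14 libraries. Of the 10, 8 were called higher and 0 lower against WT, with log2 fold changes of -1.82 to 2.71. Against CreCtrl 1 was called higher and 1 lower (-1.17 to 1.26), and against Ctrl 0 by edgeR (-1.66 to 0.76). Fibroblast markers (10 genes, among them Col1a1 and Dcn) summed to 7536 to 7665 CPM in WT, 1245 to 2693 CPM in Ctrl and CreCtrl and 124 to 742 CPM in KO, and no fibroblast marker was at 0 in any library. Endothelial markers (10 genes, none at 0) summed to 163 to 819 CPM in controls and 43.7 to 175 CPM in KO, and immediate-early genes (12 genes) to 3883 to 12295 CPM in controls and 273 to 1717 CPM in KO. Mural markers (8 genes, Cnn1 and Des at 0 in some libraries) summed to 530 to 2403 CPM in controls and 307 to 483 CPM in KO. Rod markers (10 genes, Pde6b and Cnga1 at 0 in some libraries) summed to 28.8 to 4835 CPM in controls and 118 to 1892 CPM in KO. In bulk libraries, fewer cells of a type and less RNA per cell cannot be told apart. In Clic4 above and the results below, the part of these differences was not tested except where a ratio to markers is given. The ratios of Clic4 are given with those of the members.

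Promoters from RefSeq (GRCm38.p6) are shown for a pair of receptors that were lower in every KO library (Tgfbr1 and Tgfbr2), a ligand that fell against WT (Tgfb2) and a ligand that rose against WT (Bmp4). Windows of 6 of the 10 genes were used, and Smad7 was left out of the search beforehand. Each window runs from 250 bases before to 50 bases after the start of transcription. Of 5 short motifs searched on both strands, 4 are in capitals: CAGAC, the SMAD box that SMAD3 and SMAD4 bind, GGCGCC, a GC-rich SMAD site, CACGTG, an E-box, and TAATCC, the core that OTX-type homeodomain factors bind.
Tgfbr1, chr4:47352972-47353271, plus strand: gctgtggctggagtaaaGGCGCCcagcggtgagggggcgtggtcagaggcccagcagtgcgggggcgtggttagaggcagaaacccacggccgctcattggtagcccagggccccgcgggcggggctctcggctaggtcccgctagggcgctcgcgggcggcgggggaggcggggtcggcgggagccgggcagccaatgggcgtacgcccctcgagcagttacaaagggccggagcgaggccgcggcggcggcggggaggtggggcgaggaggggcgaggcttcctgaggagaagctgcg
Tgfbr2, chr9:116175314-116175613, minus strand: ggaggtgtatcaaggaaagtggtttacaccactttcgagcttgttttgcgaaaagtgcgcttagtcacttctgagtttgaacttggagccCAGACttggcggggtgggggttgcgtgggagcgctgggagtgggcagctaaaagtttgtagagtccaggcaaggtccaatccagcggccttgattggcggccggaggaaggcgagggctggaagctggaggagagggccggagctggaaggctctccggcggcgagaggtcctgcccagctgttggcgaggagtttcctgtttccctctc
Tgfb2, chr1:186705940-186706239, minus strand: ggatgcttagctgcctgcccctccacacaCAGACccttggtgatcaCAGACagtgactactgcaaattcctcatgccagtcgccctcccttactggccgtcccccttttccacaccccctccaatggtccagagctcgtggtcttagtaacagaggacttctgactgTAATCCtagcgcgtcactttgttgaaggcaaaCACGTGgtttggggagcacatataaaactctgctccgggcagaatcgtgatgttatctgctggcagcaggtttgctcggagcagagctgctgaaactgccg
Bmp4, chr14:46390620-46390919, minus strand: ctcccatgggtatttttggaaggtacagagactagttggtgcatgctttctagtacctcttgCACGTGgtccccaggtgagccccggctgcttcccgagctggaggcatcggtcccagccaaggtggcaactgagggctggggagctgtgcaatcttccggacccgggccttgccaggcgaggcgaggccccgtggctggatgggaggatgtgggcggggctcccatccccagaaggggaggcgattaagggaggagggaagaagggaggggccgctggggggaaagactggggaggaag
Tgfb2 had 2 SMAD boxes in this window and Tgfbr2 had 1, while the windows of Tgfb1, Smad3 and Bmp4 and the window of Tgfbr1 shown here had none. The second RefSeq window of Tgfbr1, which starts 32994 bases downstream of the annotated gene start and is not shown, had 1 SMAD box and 1 TAATCC core. A SMAD box was found in 49.6% of all 32851 RefSeq windows of this length. The GC-rich site of Tgfbr1 was found in 11.9% of all windows, the E-box of Tgfb2 and Bmp4 in 7.15%, and the TAATCC core of Tgfb2 in 7.06%. The fifth motif, GGGCGG, the GC box that SP1 binds, is not in capitals. It was found 6 times in the window of Tgfb1, 2 times each in those of Smad3 and Tgfbr1 (the one shown) and 1 time in that of Bmp4, and in 35.7% of all windows. No match overlapped another in these windows.

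**Figure D1:**
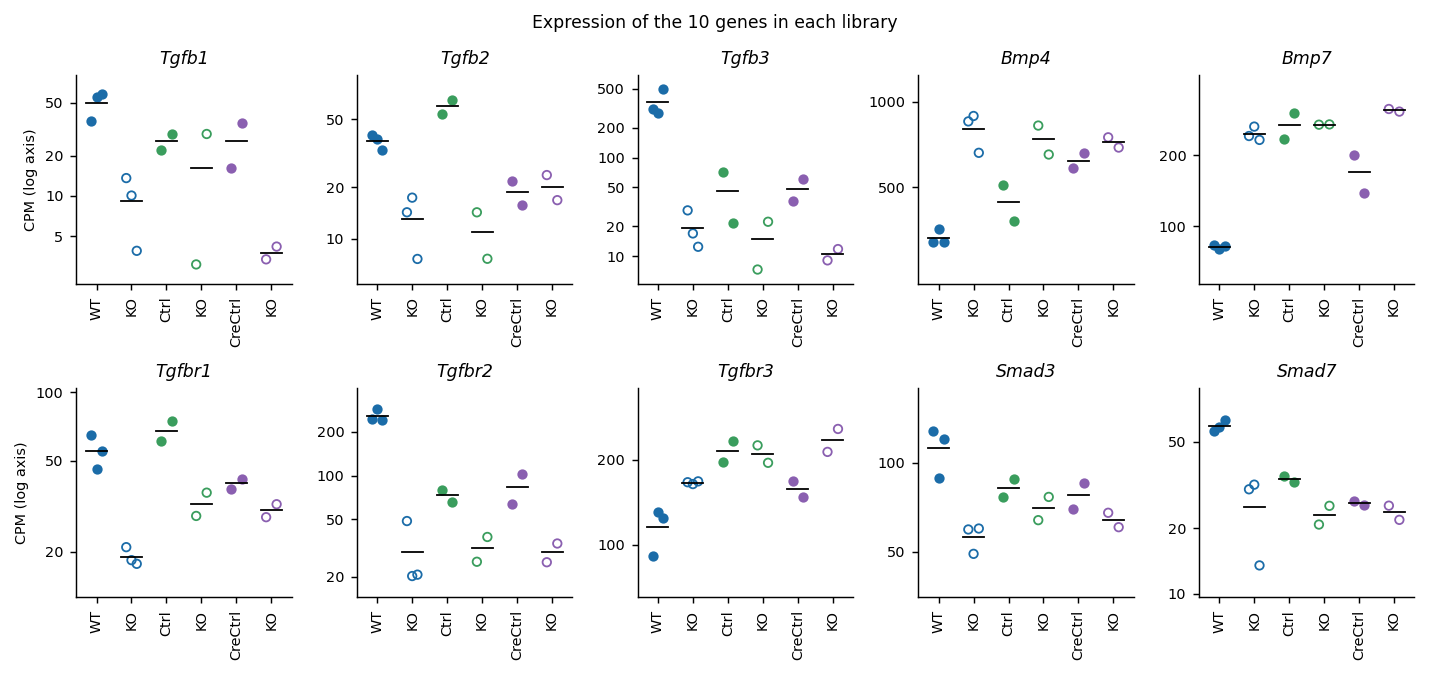
CPM of the 10 genes in each of the 14 libraries (log axes, each with its own range). Filled points are control libraries and open points KO libraries of the set named just to their left, and bars are group means. Tgfbr1 and Tgfbr2 are the genes whose 7 open points all lie below the 7 filled points.

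The TGF-β ligands were lower in KO than in WT, with Tgfb3 showing the largest difference of the 10 genes. Tgfb3 (ENSMUSG00000021253, GRCm38 chromosome 12, 86056745 to 86079041), a ligand made in large part by mesenchymal cells, had 313, 283 and 498 CPM in the WT libraries and 29.1, 17.0 and 12.4 CPM in the KO libraries of their set. Ctrl libraries had 70.7 and 21.6 CPM against 7.30 and 22.3 CPM in KO, and CreCtrl libraries 36.6 and 60.4 CPM against 9.05 and 11.8 CPM in KO. WT was thus far above all other groups, and in the Ctrl set KO and control overlapped. The log2 fold change was -4.37 (standard error 0.37) against WT (edgeR adjusted p = 6.87e-05) and -2.25 (standard error 0.28) against CreCtrl (edgeR adjusted p = 0.00644), and -1.64 (standard error 0.74) against Ctrl, where it was not called (edgeR adjusted p = 0.497). The value against Ctrl was -0.53 or -2.26 with Ctrl replicate 1 or 2 left out and -1.05 or -2.66 with KO replicate 1 or 2 left out, and the call against CreCtrl was lost in 1 fit of all 14 libraries (edgeR adjusted p = 0.0543).

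Tgfb1 (ENSMUSG00000002603, chromosome 7, 25687002 to 25705077), the ligand abundant in immune cells and platelets, had 36.4, 54.8 and 58.0 CPM in WT and 13.6, 10.1 and 3.88 CPM in KO. CreCtrl libraries had 16.2 and 35.2 CPM and their KO libraries 3.35 and 4.17 CPM, with no overlap in either set. For the Ctrl and CreCtrl sets, with 2 against 2 libraries, the share of all genes without overlap was not computed, here or below. Tgfb1 fell by 2.59 on the log2 scale against WT (standard error 0.42, edgeR adjusted p = 0.00173) and by 2.80 against CreCtrl (standard error 0.40, edgeR adjusted p = 0.0085). The latter was -2.16 without CreCtrl replicate 2 and was not called in 1 fit of all 14 libraries (edgeR adjusted p = 0.0647). In the Ctrl set, controls had 22.2 and 29.4 CPM and KO libraries 3.07 and 29.1 CPM. The groups there overlapped because of replicate 2 of the KO, and the log2 fold change of -0.68 (standard error 0.92) was not called (edgeR adjusted p = 0.905). Without replicate 1 of the KO it was 0.17, and without replicate 2 it was -3.07. The 11 myeloid markers, among them Ptprc, Cd68 and C1qa, summed to 1475 CPM in KO replicate 2 and 843 CPM in KO replicate 1 of that set, with Cx3cr1 and Aif1 at 0 in some libraries. Csf1r was the most abundant of them and ran the other way, at 695 and 766 CPM in these libraries, 485 to 508 CPM in WT and 740 to 836 CPM in KO of the WT set. After its values were seen, the other 10 were also summed without it. They came to 780 CPM in KO replicate 2 and 76.4 CPM in KO replicate 1, to 258 and 507 CPM in the Ctrl libraries, to 841 to 1225 CPM in WT and to 38.7 to 141 CPM in the KO libraries of the other sets. Per 1000 CPM of these 10 markers, Tgfb1 had 40.1 CPM in replicate 1 and 37.3 CPM in replicate 2 of the KO, and 43.7 and 114 CPM in the Ctrl libraries. That ratio was 50.3 ± 10.97 in WT and 89.7 ± 21.3 in KO (SD, n = 3 each), and 101 ± 2.63 in CreCtrl and 82.0 ± 6.41 in KO (SD, n = 2 each).

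Tgfb2 (ENSMUSG00000039239, chromosome 1, 186622792 to 186705989), the isoform known as predominant in ocular tissues, took its own course across the sets. WT libraries had 40.5, 38.5 and 33.0 CPM and their KO libraries 14.3, 17.4 and 7.62 CPM, a fall of 1.66 on the log2 scale (standard error 0.29, edgeR adjusted p = 0.00271). Ctrl libraries had the most Tgfb2, 53.6 and 65.3 CPM, against 14.3 and 7.64 CPM in KO. This difference, -2.44 on the log2 scale (standard error 0.38), had an unadjusted p of 0.000829 in edgeR's test but was not called (edgeR adjusted p = 0.108). DESeq2 did call it (adjusted p = 8.52e-07). CreCtrl libraries had only 21.8 and 15.7 CPM, which overlapped their KO libraries at 23.6 and 16.8 CPM, and the log2 fold change was 0.06 (standard error 0.24, edgeR adjusted p = 0.866).

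The BMP ligands lay on the other side. Bmp4 (ENSMUSG00000021835, chromosome 14, 46383520 to 46390669), needed for early eye and RPE development, had 319, 355 and 321 CPM in WT and 852, 891 and 660.5 CPM in KO. It rose against WT by a log2 fold change of 1.13 (standard error 0.14, edgeR adjusted p = 0.000454). Ctrl libraries had 508 and 379.6 CPM against 824 and 651 CPM in KO, and CreCtrl libraries 582 and 657 CPM against 749 and 689 CPM in KO. KO was above control in each set without overlap, with no share of all genes computed for the Ctrl and CreCtrl sets. The log2 fold changes of 0.73 against Ctrl (standard error 0.28, edgeR adjusted p = 0.385) and 0.18 against CreCtrl (standard error 0.18, edgeR adjusted p = 0.5) were not called.

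Bmp7 (ENSMUSG00000008999, chromosome 2, 172868012 to 172940321), a BMP also needed for eye formation, had 83.1, 79.9 and 82.6 CPM in WT and 242, 265 and 233 CPM in KO, and rose by a log2 fold change of 1.45 (standard error 0.11, edgeR adjusted p = 4.99e-05). CreCtrl libraries had 201 and 138 CPM against 315 and 307 CPM in KO, a log2 fold change of 0.84 (standard error 0.21, edgeR adjusted p = 0.0407) that was not called when any 1 of 3 libraries of that set was left out. Ctrl libraries, at 236 and 304 CPM, stood on both sides of their KO libraries at 270.1 and 271 CPM, and the log2 fold change was 0.00 (standard error 0.24, edgeR adjusted p = 0.998). WT was thus the control group with the least Bmp7, below every other library.

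**Figure D2:**
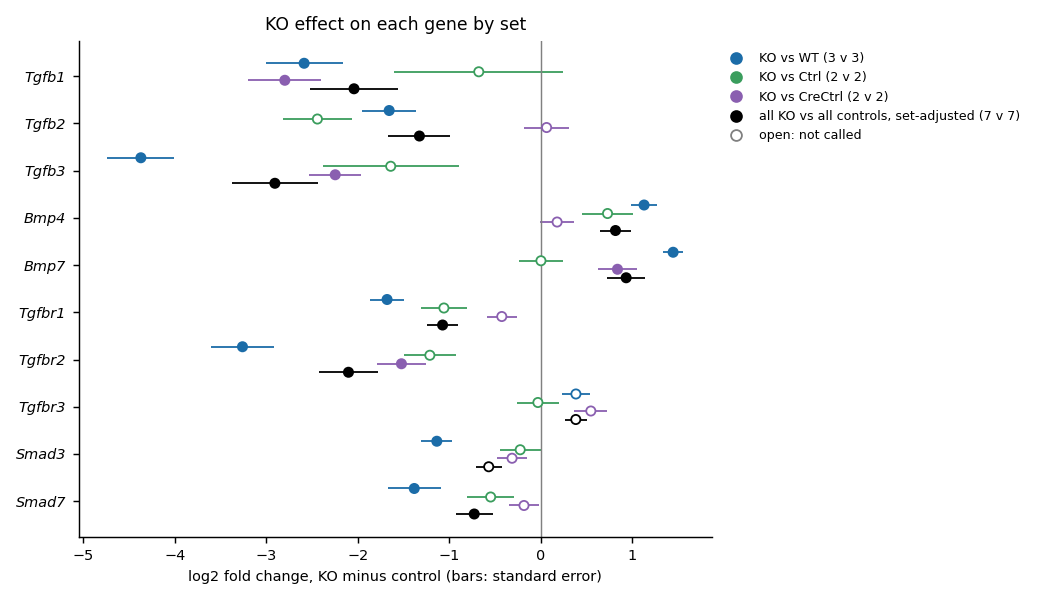
Log2 fold change of each gene, KO minus control, with its standard error, in the 3 sets and in the fit of all 14 libraries with set as a covariate. Filled points were called at an adjusted p under 0.05 and a fold change above 1.5, and open points were not. Filled blue points (WT set) lie farthest from 0 for Tgfb3, at -4.37, and Tgfbr2, at -3.26.

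Both signaling receptors of TGF-β were lower in KO. Tgfbr2 (ENSMUSG00000032440, chromosome 9, 116084293 to 116175360), the receptor that binds the ligand, had 248, 288 and 243 CPM in WT and 48.6, 20.3 and 20.7 CPM in KO. Ctrl libraries had 80.2 and 66.0 CPM against 25.4 and 37.7 CPM in KO, and CreCtrl libraries 63.5 and 103 CPM against 25.2 and 34.0 CPM in KO. No KO library reached the lowest control library. Tgfbr2 fell by 3.26 on the log2 scale against WT (standard error 0.34, edgeR adjusted p = 0.000187) and by 1.52 against CreCtrl (standard error 0.27, edgeR adjusted p = 0.0152). Against Ctrl the log2 fold change was -1.21 (standard error 0.29), with an unadjusted p of 0.00653, and it was not called by edgeR (adjusted p = 0.148) but was by DESeq2 (adjusted p = 0.0126).

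Tgfbr1 (ENSMUSG00000007613, chromosome 4, 47353222 to 47414931), the kinase that phosphorylates SMAD2 and SMAD3, is also among the AMD risk genes that the study examined in these libraries. It had 64.6, 46.1 and 55.0 CPM in WT and 20.95, 18.4 and 17.7 CPM in KO, a fall of 1.68 on the log2 scale (standard error 0.18, edgeR adjusted p = 0.000228). Ctrl libraries had 60.8 and 74.5 CPM against 28.7 and 36.3 CPM in KO, and CreCtrl libraries 37.8 and 41.8 CPM against 28.3 and 32.3 CPM in KO. The highest KO library was thus just below the lowest control library. The log2 fold changes of -1.06 against Ctrl (standard error 0.25, edgeR adjusted p = 0.148) and -0.43 against CreCtrl (standard error 0.16, edgeR adjusted p = 0.104) were not called by edgeR, and DESeq2 called the former (adjusted p = 0.0181). Of all 17662 genes tested over the 14 libraries, 4.77% had every KO library below every control library and 3.35% every KO library above.

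Tgfbr3 (ENSMUSG00000029287, chromosome 5, 107106570 to 107289629), or betaglycan, a co-receptor that presents TGF-β2 to the signaling receptors, differed from the other receptors. WT libraries had 91.0, 131 and 124 CPM and KO libraries 167, 164 and 168 CPM. CreCtrl libraries had 168 and 147 CPM against 214 and 258 CPM in KO, and Ctrl libraries 196 and 233 CPM against 225 and 195 CPM in KO. KO was higher without overlap in the WT and CreCtrl sets, yet the log2 fold changes of 0.38 (standard error 0.15, edgeR adjusted p = 0.0864) and 0.55 (standard error 0.18, edgeR adjusted p = 0.0747) were not called, nor was -0.03 against Ctrl (standard error 0.23, edgeR adjusted p = 0.987).

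The SMADs were lower in KO against WT. Smad3 (ENSMUSG00000032402, chromosome 9, 63646767 to 63757994), which carries the TGF-β signal to the nucleus, had 128, 88.8 and 120.1 CPM in WT and 59.5, 49.3 and 60.0 CPM in KO, a fall of 1.14 on the log2 scale (standard error 0.17, edgeR adjusted p = 0.00111). Smad7 (ENSMUSG00000025880, chromosome 18, 75367529 to 75395935), an inhibitor that TGF-β itself induces, had 56.0, 58.3 and 63.1 CPM in WT and 30.2, 31.7 and 13.5 CPM in KO, a fall of 1.38 (standard error 0.29, edgeR adjusted p = 0.00631). In the other sets neither was called. Smad3 had 69.9 to 87.8 CPM in Ctrl and CreCtrl libraries and 60.6 to 76.6 CPM in their KO libraries, and Smad7 25.7 to 34.8 CPM against 20.8 to 25.4 CPM.

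Taking the genes by count, 9 of 10 were called against WT, 7 lower and 2 higher. Of all 15428 genes tested there, 17.6% were called lower and 14.1% higher. Every KO library was below every WT library for 7 genes and above for 3, where 24.5% of all genes tested were below and 28.7% above. Against CreCtrl 4 were called, Tgfb1, Tgfb3 and Tgfbr2 lower and Bmp7 higher, against backgrounds of 12.2% lower and 3.46% higher of 15963 genes. Against Ctrl none was called by edgeR, as for all other genes there (0% of 15287). At an unadjusted p under 0.05 and a fold above 1.5, 3 were lower (Tgfb2, Tgfbr1 and Tgfbr2, background 11.3%) and 1 higher (Bmp4, background 0.615%), and DESeq2 called those 3 lower, with 7.16% of all genes.

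With set as a covariate, 7 KO against 7 control libraries gave 8 calls. Tgfb1 (-2.04), Tgfb2 (-1.33), Tgfb3 (-2.91), Tgfbr1 (-1.07), Tgfbr2 (-2.10) and Smad7 (-0.73) fell and Bmp4 (0.82) and Bmp7 (0.93) rose (log2 fold changes, edgeR adjusted p of 0.000432 to 0.0129). Tgfb1 was at -2.66 without KO replicate 2 of the Ctrl set. Of 17662 genes tested, 15.7% were called lower and 10.3% higher. In a fit of the Ctrl and CreCtrl sets alone, chosen after the marker levels were seen, with 4 KO against 4 control libraries, Tgfbr2 was the only gene of the 10 called, at a log2 fold change of -1.36 (standard error 0.22, edgeR adjusted p = 0.0139), where 5.51% of all genes were called lower and 0.223% higher. Tgfbr1 was at -0.73 (standard error 0.18, edgeR adjusted p = 0.0507) and Tgfb3 at -1.93 (standard error 0.47, edgeR adjusted p = 0.051), both with an adjusted p just above the threshold. Of the 10 genes, 6 had an unadjusted p under 0.05 in that fit, as had 26.5% of all genes. Tgfb1 and Tgfb2, which were not called there (edgeR adjusted p = 0.184 and 0.213), had log2 fold changes of -1.72 and -1.17.

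The KO effect itself differed between the WT and Ctrl sets for Bmp7, whose log2 fold change was larger by 1.59 in the WT set (standard error 0.24, edgeR adjusted p = 0.00846), and for Tgfbr2, lower by 1.91 (difference -1.91, standard error 0.49, edgeR adjusted p = 0.0434). Of all genes, 5.15% differed. Between the WT and CreCtrl sets edgeR called none of the 10, with 1.49% of all genes called. At an unadjusted p under 0.05 there were 8 (14.9% of all genes), and DESeq2 called 4 (5.1% of all genes). Between the Ctrl and CreCtrl sets edgeR called none, with 0% of all genes called. At an unadjusted p under 0.05 there were 4 (8.75% of all genes), and DESeq2 called 1 (0.651% of all genes). For 8 of 10 genes the control group means were spread wider over the 3 sets than the KO group means, the exceptions being Tgfb1 and Tgfbr1. The share of all genes with such a spread was not computed, so this count is not a trait of the 10 genes. Summed RPE markers were also spread wider over the control libraries (15055 to 56280 CPM) than over the KO libraries (69757 to 79982 CPM). The KO group means of Tgfbr2 were 29.6 to 31.6 CPM while the control means were 73.1 to 260 CPM, and for Bmp4 719 to 801 CPM against 331 to 619 CPM. KO libraries of the sets carry the same genotype.

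Levels of different genes were compared per kilobase of exon. Bmp4 had the highest level of the 10 genes in each of the 6 groups, from 147 ± 8.95 CPM per kb in WT (SD, n = 3) to 356 ± 54.9 CPM per kb in KO of the WT set (SD, n = 3). In WT, Tgfb3 (108 ± 34.4 CPM per kb) overlapped Bmp4 and Tgfbr2 (31.7 ± 3.03) came next, well below Tgfb3. Bmp7 (20.4 ± 0.44), Smad3 (20.2 ± 3.71) and Tgfbr3 (17.6 ± 3.25) then overlapped each other in turn, followed by Smad7 (13.1 ± 0.80), Tgfb1 (9.87 ± 2.31), Tgfbr1 (8.45 ± 1.41) and Tgfb2 (6.45 ± 0.67; SD, n = 3 for each). In all other groups Bmp7 was next to Bmp4 and Tgfbr3 next to Bmp7, with no overlap between these ranks. In KO of the WT set they had 61.3 ± 4.15 and 25.4 ± 0.29 CPM per kb, while Tgfb3 had 5.77 ± 2.55 and Tgfbr2 3.65 ± 1.98 CPM per kb (SD, n = 3).

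The make-up of the ligands differed accordingly. Of the summed level per kilobase of the 3 TGF-β ligands, Tgfb3 made up 86.3 ± 3.43% in WT and 58.8 ± 7.57% in KO of that set (SD, n = 3 each). Tgfb3 made up 43.8 ± 23.5% in Ctrl and 44.7 ± 4.90% in their KO, and 62.8 ± 2.84% in CreCtrl and 42.2 ± 8.62% in their KO (SD, n = 2 each). Tgfb2 was the most abundant of the 3 in KO replicate 1 of the Ctrl set, at 47.1%, and in KO replicate 1 of the CreCtrl set, at 55.0%, and in Ctrl replicate 2, at 48.0%. Summed Bmp4 and Bmp7 were at 1.42 ± 0.39 times the sum of the 3 TGF-β ligands in WT, with WT replicate 3 at 0.993, and at 46.4 ± 14.6 times in KO of that set. This ratio was 9.33 ± 1.54 in Ctrl and 14.6 ± 3.89 in CreCtrl, and 54.5 ± 40.2 and 54.3 ± 1.73 in their KO groups. The lowest KO library was at 26.1 and the highest control library at 17.4. The ratio sets ligands that were higher in KO than in WT over ligands that were lower, so this gap restates those differences. It was not tested, and no share over other sets of genes was computed.

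**Figure D3:**
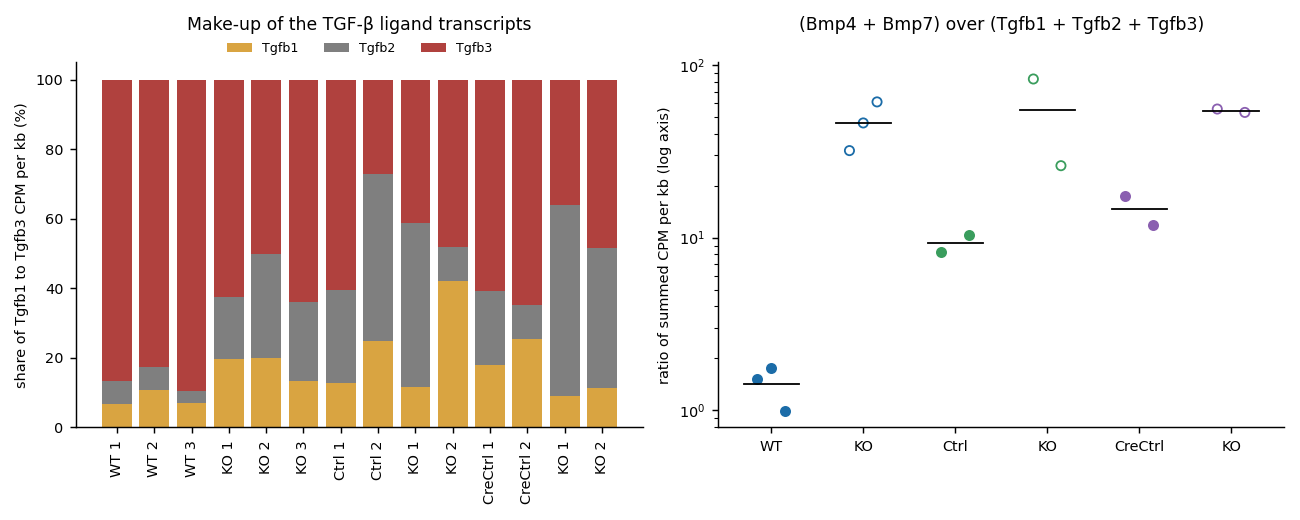
Left, the share (%) of Tgfb1, Tgfb2 and Tgfb3 in their summed CPM per kb, 1 bar for each library, KO libraries to the right of their controls. Right, the ratio of Bmp4 plus Bmp7 to Tgfb1 plus Tgfb2 plus Tgfb3 (CPM per kb, log axis), with filled control points, open KO points and bars for group means. The ratio lies at or below 17.4 in the 7 control libraries and at or above 26.1 in the 7 KO libraries. It sets ligands that were higher in KO than in WT over ligands that were lower, and was not tested.

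The receptors shifted in the same comparison. Tgfbr2 had 3.86 ± 1.01 times the level of Tgfbr1 per kilobase in WT (SD, n = 3) and 1.22 ± 0.55 times in KO of that set (SD, n = 3), where KO replicate 1 was at 1.85 and the others at 0.88 and 0.934. In the CreCtrl set this ratio was 1.34 and 1.97 in controls and 0.711 and 0.84 in KO, while in the Ctrl set it overlapped, at 1.05 and 0.707 in controls and 0.707 and 0.83 in KO. Tgfbr3 was at 0.56 ± 0.09 times Tgfbr2 in WT and 8.18 ± 3.37 times in KO. In Ctrl and CreCtrl it was 1.78 to 4.43 times Tgfbr2, and 6.48 to 11.1 times in their KO libraries.

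Ratios to the summed markers of a cell type differed by gene and set. Per 1000 CPM of fibroblast markers, Tgfb3 had 48.0 ± 14.8 CPM in WT and 47.3 ± 8.499 CPM in KO (SD, n = 3 each), so the difference against WT was not seen in that ratio. Its ratio was 25.1 ± 3.80 in CreCtrl and 35.4 ± 0.05 in KO, and 23.6 ± 8.81 in Ctrl and 64.8 ± 8.44 in KO (SD, n = 2 each). For Tgfbr2 the ratio was 34.2 ± 3.49 in WT and 70.0 ± 6.47 in KO (SD, n = 3 each), the reverse of the order of its CPM. Per 1000 CPM of RPE markers, Bmp4 had 18.5 ± 3.64 CPM in WT and 10.8 ± 1.36 CPM in KO, and Bmp7 4.58 ± 0.91 and 3.31 ± 0.06 CPM (SD, n = 3 each). Neither was higher in KO than in WT by that measure. Bmp7 had 3.20 ± 0.53 CPM in CreCtrl and 4.29 ± 0.32 CPM in KO, but 5.88 ± 0.98 CPM in Ctrl and 3.81 ± 0.08 CPM in KO (SD, n = 2 each). Bmp4 had 11.9 ± 2.20 CPM in CreCtrl and 9.93 ± 1.15 CPM in KO, and 9.69 ± 2.09 CPM in Ctrl and 10.4 ± 1.96 CPM in KO (SD, n = 2 each). Tgfbr1 was lower in KO per 1000 CPM of RPE markers (3.12 ± 1.02 in WT and 0.257 ± 0.032 in KO) and higher per 1000 CPM of fibroblast markers (7.29 ± 1.23 and 51.7 ± 20.5; SD, n = 3 each). The marker ratios were chosen after the values were seen.

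**Figure D4:**
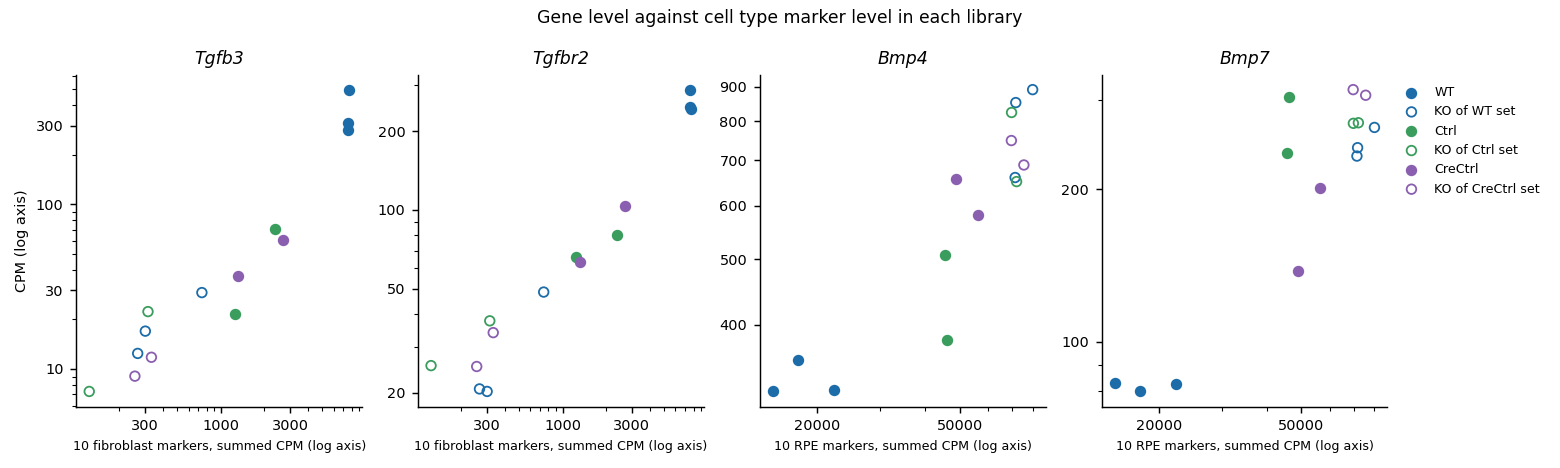
CPM of Tgfb3 and Tgfbr2 against the summed CPM of 10 fibroblast markers, and of Bmp4 and Bmp7 against the summed CPM of 10 RPE markers, 1 point for each of 14 libraries (log axes). The WT libraries stand alone, with fibroblast markers of 7536 CPM or more and RPE markers of 22305 CPM or less, and the KO libraries (open) gather at the other end.

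The tested genes whose log2 CPM followed each member most closely over the 14 libraries were drawn from the same libraries, so all share their depth and marker differences. Tgfb3 was closest to Pdgfrb, a pericyte and fibroblast receptor (Pearson r = 0.989), Tgfbr2 to Fkbp10, a collagen chaperone (r = 0.993), and Tgfb1 to Fermt3, an integrin adaptor of blood cells (r = 0.97). Bmp7 was closest to App, the amyloid precursor (r = 0.991), Bmp4 to Scamp5 (r = 0.959) and Tgfbr3 to Dnajb14 (r = 0.973). Tgfb2 was closest to Raver2 (r = 0.958), Tgfbr1 to Add3 (r = 0.951) and Smad3 to Foxj2 (r = 0.95). Smad7 was closest to Fzd2 (r = 0.965) and then to Smad6, the inhibitory SMAD of the BMP arm (r = 0.959). The next 2 genes of each member had r of 0.932 to 0.989.

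Of 108 other genes of the pathway, 92 were tested against WT, where 53 were lower and 7 higher, with a median log2 fold change of -1.57 against -0.08 over all genes. Against CreCtrl 28 were lower and 4 higher of 90 tested (median -0.56, all genes -0.02). Against Ctrl edgeR called none of 87 (median -0.72, all genes 0.01), with 30 lower and 0 higher at an unadjusted p under 0.05 and a fold above 1.5, and 20 lower by DESeq2. Of all genes tested, 17.6% were called lower and 14.1% higher against WT, and 12.2% and 3.46% against CreCtrl. These shares also stand beside the counts of single lists below. Against Ctrl the unadjusted shares of all genes were 11.3% lower and 0.615% higher, and DESeq2 called 7.16% lower. The lists were drawn up by role, with earlier results of these data known.

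**Figure D5:**
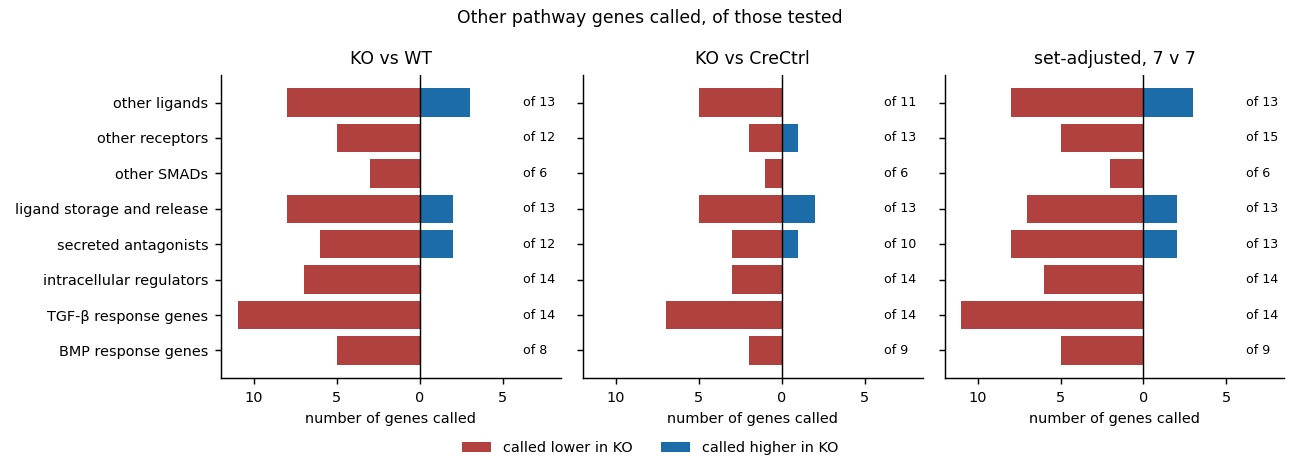
Number of genes called lower (left bars) and higher (right bars) in KO among 8 lists of other pathway genes, with the number tested at the right of each row, against WT, against CreCtrl and with set as a covariate over 14 libraries. TGF-β response genes have 11 of 14 lower against WT and none higher. Of all genes tested against WT, 17.6% were called lower and 14.1% higher.

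Among other ligands, 8 of 13 tested were lower and 3 higher against WT. The higher ones were Bmp2 (47.2 ± 4.83 CPM in WT and 145 ± 12.4 CPM in KO), Bmp6 (50.7 ± 3.19 and 159 ± 25.5 CPM) and Gdf11 (105 ± 8.29 and 241 ± 34.1 CPM; SD, n = 3), so the abundant BMPs of these libraries shared the direction of Bmp4 and Bmp7. The log2 fold change was 1.47 for Bmp2 and 1.05 for Gdf11 (edgeR adjusted p of 7.84e-05 and 0.000618, and 0.000113 for Bmp6), and none was called against CreCtrl. Gdf10 went the other way, from 138 ± 36.2 to 5.11 ± 3.18 CPM against WT (log2 fold change -4.90, edgeR adjusted p = 0.000106) and with a log2 fold change of -4.93 against CreCtrl (edgeR adjusted p = 0.00615). Bmp1, a procollagen protease in spite of its name, was called lower in both sets as well (log2 fold changes -2.85 and -1.28). Gdf15, a stress-induced ligand, was also lower in both (-1.25 and -1.63).

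Among other receptors, 5 of 12 were lower against WT and none higher. The endothelial receptors of the family, Eng (129 ± 33.4 CPM in WT and 18.1 ± 11.3 CPM in KO) and Acvrl1 (85.3 ± 7.08 and 7.01 ± 4.86 CPM; SD, n = 3), fell against WT (log2 fold changes -2.99 and -3.74) and against CreCtrl (-3.24 and -2.86), beside endothelial markers that were lower in the same libraries. The BMP receptors Bmpr1a and Bmpr2 had log2 fold changes of -0.04 and -0.56 against WT and were not called there, and the BMP co-receptor Rgma fell (-0.62). Bmpr1a was called higher against CreCtrl (0.70, edgeR adjusted p = 0.0397). Of the other SMADs, 3 of 6 fell against WT, the inhibitor Smad6 (-1.86), the BMP effector Smad9 (-2.54) and the common partner Smad4 (-0.62), while Smad5 was at -0.33 (edgeR adjusted p = 0.141).

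Ligand storage and release gave calls in both directions, 8 of 13 lower and 2 higher against WT. Itgb8 and Itgav, the subunits of an integrin that activates latent TGF-β, rose from 167 ± 22.7 to 1354 ± 133 CPM and from 137 ± 8.85 to 517 ± 68.5 CPM (SD, n = 3; log2 fold changes 2.87 and 1.77, edgeR adjusted p of 2.24e-05 and 5.68e-05). Both were also called higher against CreCtrl (1.28 and 1.32). Against Ctrl neither was called, with log2 fold changes of 0.39 and 0.22 (edgeR adjusted p = 0.834 and 0.925). Itgb8 had 2635 ± 761 CPM in Ctrl and 3455 ± 863 CPM in KO there, and Itgav 688 ± 184 and 804 ± 304 CPM (SD, n = 2 each). Ltbp4, which anchors latent TGF-β in the matrix, fell from 363 ± 21.04 to 17.9 ± 6.89 CPM against WT (-4.49, edgeR adjusted p = 3.33e-05) and by 3.70 on the log2 scale against CreCtrl. Thbs1, an activator of latent TGF-β, was called lower against WT (-0.68) and had a log2 fold change of 0.27 against CreCtrl (edgeR adjusted p = 0.454).

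Of the secreted antagonists, 6 of 12 were lower and 2 higher against WT. The BMP antagonists Nog (50.7 ± 7.08 CPM in WT and 244 ± 40.7 CPM in KO) and Sostdc1 (67.5 ± 27.8 and 211 ± 28.8 CPM; SD, n = 3) rose with Bmp4 and Bmp7, with log2 fold changes of 2.13 and 1.49, and Nog was also called higher against CreCtrl (0.99). Nbl1 and Fstl1 fell against WT (-3.76 and -2.67) and against CreCtrl (-2.01 and -0.93). Among intracellular regulators, 7 of 14 were lower against WT and none higher, among them the SMAD co-repressors Ski (-2.08) and Tgif1 (-1.46), both also called lower against CreCtrl (-0.91 and -0.85), and Hivep2 (-0.87 and -0.81). Fkbp1a, which holds TGFBR1 inactive, and Nedd4l, a ubiquitin ligase, had log2 fold changes of 0.06 and 0.58 against WT (edgeR adjusted p = 0.783 and 0.0356). Neither was called, Nedd4l because its fold change was below 1.5.

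Genes known to respond to TGF-β were mostly lower in KO. Of 14 tested, 11 were called lower against WT and 7 against CreCtrl, with none higher. Ccn2, or connective tissue growth factor, fell from 2696 ± 475 to 102 ± 39.0 CPM against WT (SD, n = 3; log2 fold change -4.86, edgeR adjusted p = 3.33e-05), Fn1 (fibronectin) from 476 ± 126 to 16.3 ± 10.02 CPM (-5.01) and Tgfbi from 119 ± 30.9 to 12.7 ± 7.44 CPM (-3.37). Bhlhe40 also fell against WT (-1.07), while Itgb5 (-0.47, edgeR adjusted p = 0.0233) was not called because its fold change was below 1.5. The first 3 were called lower against CreCtrl (-3.50, -3.39 and -2.89). Many of these genes are also expressed by fibroblasts, whose 10 markers were all called lower against WT, and the part of this in the count was not tested. Of the genes known to respond to BMP, 5 of 8 were lower against WT and none higher (17.6% and 14.1% of all genes). Bmp4 and Bmp7 were higher there. Of the endothelial markers, 9 of 10 were called lower against WT. The part of the endothelial and fibroblast marker differences in this count was not tested. Id3 fell from 525 ± 91.6 to 94.8 ± 34.1 CPM and Id1 from 66.9 ± 20.2 to 23.1 ± 3.51 CPM (SD, n = 3; log2 fold changes -2.61 and -1.68), and both were called lower against CreCtrl (-1.95 and -1.46). Id2 had a log2 fold change of 0.23 (edgeR adjusted p = 0.436). Against Ctrl, Id3 was at -1.73 and Id1 at -1.27, not called by edgeR (adjusted p = 0.137 and 0.192).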

How the data were processed

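RPE cells of 14 male mice were profiled by stranded poly(A) RNAseq. The deposited values are counts of reads per Ensembl gene, which the authors made from reads aligned to GRCm38. The submitters' processing notes name bcl2fastq 2.19, STAR 2.5.2, Cufflinks 2.1.1 and HTSeq 0.11.2. The strand setting and annotation release of the counting are not given in the sources used here, so reads of Tgfb2, Tgfb3, Bmp4 and Tgfbr3 may include those of genes whose exons overlap theirs. GENCODE M21 gave names, positions and exon lengths for 42329 of 42687 genes.

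Counts were tested with edgeR 4.0.16 (quasi-likelihood, TMM, filterByExpr, Benjamini-Hochberg) in R 4.3.3, with DESeq2 1.42.0 as an alternative, and the scripts were first tested on simulated data. Fold changes come from the fit of each set. CPM are scaled over 14 libraries, log2 CPM use a prior count of 2, and depth limits the precision for low genes. The smallest p of an exact permutation test is 0.1 with 3 against 3 and 0.333 with 2 against 2. Named pathway genes are the 3 of highest mean CPM in each list and up to 3 called against both WT and CreCtrl, and for each member the 3 genes of highest correlation. The members and lists were chosen with earlier results of these data known.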

Additional observations from a re-analysis of the deposited data

Results flagged for a closer look

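Among the 7 KO libraries, Tgfb1 in replicate 2 of the Ctrl set stood apart at 29.1 CPM, where the median was 4.17 CPM. The gap to the next library was 0.595 of the whole range, above the limit of 0.568 for 7 samples, a limit that chance passes in about 1 of 20 groups, and 11 genes were tested in this way. Myeloid markers other than Csf1r were also highest in that library among the KO libraries (780 CPM), while Csf1r was lowest there (695 CPM). The KO effects on Bmp7 and Tgfbr2 differed between the WT and Ctrl sets, by 1.59 and by -1.91 on the log2 scale (edgeR adjusted p = 0.00846 and 0.0434). Control genotype and set cannot be told apart in either difference.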

How the results depend on the processing

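Against WT, 9 of the 10 genes were called under each alternative run (RLE normalization, library size alone, all genes with at least 1 count, DESeq2, a replicate block, 1 fit of all 14 libraries and leaving out each library). In these runs 15428 to 22729 genes were tested, with 2185 to 3585 called lower and 1417 to 3129 higher. Against Ctrl the fit as described called 0. The number was 4 with all genes of at least 1 count, 3 with DESeq2 and 2 in 1 fit of all 14 libraries. Of 23965 genes of at least 1 count, 1632 were called lower and 26 higher. DESeq2 called 1094 lower and 17 higher of 15287 genes, and 1 fit of all 14 libraries 635 and 12 of 17662. Against CreCtrl, 4 became 2 in 1 fit of all 14 libraries, where Tgfb1 and Tgfb3 were no longer called (edgeR adjusted p = 0.0647 and 0.0543). In that fit 506 of 17662 genes were called lower and 197 higher. Bmp7 was not called against CreCtrl with library size alone (edgeR adjusted p = 0.0574). With set as a covariate, 8 became 7 to 9 when a library was left out and 1 in the Ctrl and CreCtrl sets only, chosen after seeing the data. Smad7 lost its call without KO replicate 3 of the WT set and Bmp4 with library size alone, and Smad3 gained one in 9 settings.

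The KO effect differed between the WT and Ctrl sets for 2 genes, and for 4 with all genes of at least 1 count and 4 with DESeq2. Between the WT and CreCtrl sets 0 became 1 with RLE normalization, 1 with library size alone, 5 with all genes of at least 1 count and 4 with DESeq2. Between the Ctrl and CreCtrl sets 0 became 2 with all genes of at least 1 count and 1 with DESeq2. Of all genes, DESeq2 called 5.1% between the WT and CreCtrl sets and 0.651% between the Ctrl and CreCtrl sets. Shares of all genes were not computed for the other alternative settings of these contrasts. The causes of these differences were not tested.

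Changes of sign were found only among values that were not called. Against Ctrl, Bmp7 was at -0.11 with library size alone, at -0.013 with all genes of at least 1 count and at -0.16 to 0.19 when a library was left out, where Tgfbr3 ranged from -0.14 to 0.093 and Tgfb1 from -3.07 to 0.17. Against CreCtrl, Tgfb2 was at -0.14 and Bmp4 at -0.043 with library size alone, and Tgfb2 at -0.17 to 0.32 when a library was left out. Library size alone moved the median of all genes to -0.32 against WT, -0.11 against Ctrl, -0.24 against CreCtrl and -0.29 with set as a covariate. It moved the calls against WT from 2716 lower and 2171 higher to 3585 and 1417, those against CreCtrl from 1946 and 552 to 2694 and 176, and those with set as a covariate from 2771 and 1815 to 3808 and 678.

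Deviations of libraries of the same number had r of -0.017, 0.073 and 0.186 for WT pairs. The r was -0.006 for Ctrl pairs and 0.11 for CreCtrl pairs. WT pairs of different numbers had r of -0.159 to 0.074, below the 0.186 of the replicate 3 pair. Groups of 2 libraries give the same r for matching and differing numbers, with opposite sign. Ctrl and CreCtrl pairs therefore cannot decide whether the numbers pair mice, and the WT pairs did not settle it. With a replicate block the members called were 9 against WT, 0 against Ctrl, 4 against CreCtrl and 8 with set as a covariate. With 2 libraries a group the Ctrl and CreCtrl sets bound what can be seen there.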
